A study of Homo sapiens with 15 samples.

Results

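A549 cells given IL-13 for 24 h (3 arrays) were compared with the untreated cells of the 0 h time point (3 arrays), which gives the net change from the start of the experiment to its end. The arrays were taken by their titles and make up 6 of the 15 arrays of the study. Also in the study, with 3 arrays each, were cells kept untreated to 24 h and cells exposed to IL-13 for 4 h or 12 h. A549, a bronchial line according to the labels, was grown from a human lung adenocarcinoma and has features of alveolar type II epithelium. Total RNA was read on an Affymetrix human array, hgu133a. The labels give no dose of IL-13 and no medium, and are silent on whether a replicate was a culture of its own. The p-values therefore rest on the spread from array to array, part or all of which may be technical.

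The 0 h cells had neither IL-13 nor the further day in culture, so this difference holds both. For each gene it is the arithmetic sum of a change without IL-13 (untreated cells at 24 h minus 0 h) and a difference between treated and untreated cells at 24 h. The 3 comparisons share arrays, and their values are therefore given side by side and not as separate evidence. Below, the net difference is IL-13 at 24 h minus untreated at 0 h, the culture step is untreated 24 h minus untreated 0 h, and the IL-13 step is IL-13 24 h minus untreated 24 h.

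IL-13 is a type 2 cytokine made by helper T cells and innate lymphoid cells in allergic airways. On epithelial cells it binds a receptor made of IL13RA1 and IL4R, whose JAK kinases phosphorylate STAT6, and STAT6 then enters the nucleus and switches on genes of mucus production, eosinophil recruitment and epithelial repair. The decoy chain IL13RA2 and inhibitors of the SOCS family, such as CISH and SOCS1, limit the signal.

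The cells showed the marker genes of an epithelium. Of 8 epithelial markers, 6 were bright enough to test (KRT8, KRT18, KRT19, KRT7, CDH1 and ELF3). The summed signal of all 8 ran from 18453 to 20377 at 0 h and from 19152 to 22589 after 24 h of IL-13. Most markers of other cells were dim: 8 of 10 for leukocytes, PTPRC among them, 8 of 10 for fibroblasts and 6 of 8 for endothelium, VWF and CDH5 among them. The summed signals were 272 to 321 at 0 h and 247 to 357 after IL-13 for leukocytes, and 210 to 297 and 204 to 240.0 for endothelium. The array medians were 57.1 to 60.6 at 0 h and 56.7 to 64.4 after IL-13, and those of the untreated 24 h arrays, which enter both steps, stood apart at 66.3 to 72.5. The calls of the steps depended on how this was scaled, 1016 for the IL-13 step and 869 for the culture step with median scaling. The 3'/5' signal ratio of the beta-actin control probe sets, which rises as RNA degrades, was 0.930 to 1.06 at 0 h, 1.09 to 1.23 after 24 h of IL-13 and 1.11 to 1.24 in untreated cells at 24 h. It moved with the net comparison, without overlap, while the GAPDH ratio ran from 0.862 to 0.907 at 0 h and from 0.854 to 0.900 after IL-13. The part of RNA integrity in the differences below was not tested.

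Over the full array the net calls were even in number and, with the filter and scale used here, uneven in size. Of 6884 genes bright enough to test, limma with Benjamini-Hochberg adjustment called 473 (6.87%) at an adjusted p under 0.05, 234 higher (3.4%) and 239 lower (3.47%). Genes that changed at least 2-fold were mostly rises, 21 against 6 falls. The number of such genes depended on the settings. It was 27 here, 34 and 10 with pseudocounts of 1 and 62, and 35 with no filter. Whether the split held in those settings was not tested. The filter used the mean of all arrays, so a gene dim at 0 h could pass through later arrays. A gene bright mainly at 0 h could be left out. The median of all genes was 0.0026 on the log2 scale, the median size of a called difference was 0.54, and 1413 genes had an unadjusted p under 0.05. In 468 of the called genes the 3 normalized values after IL-13 lay all above or all below those at 0 h, a separation that 1835 of the tested genes (26.7%) showed. The culture step alone had 249 calls (3.62%), 119 higher (1.73%) and 130 lower (1.89%), and the IL-13 step 482 (7.0%), 271 higher (3.94%) and 211 lower (3.07%).

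The number of calls depended on single arrays more than on scaling. Leaving out array c of the IL-13 group gave 210 calls, and leaving out the 0 h arrays a, b and c gave 304, 269 and 250, each lower than the full count by over 1.5 times. Leaving out arrays a and b of the IL-13 group gave 355 and 341. Of the 473 calls, 153 were kept in all 6 of these fits and 136 (84 higher, 52 lower) in all 19 alternative settings tried. The share of higher genes stayed between 47.0% and 56.5%. Fold changes are on the scale of log2(signal + 20), which understates the change of dim genes.

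**Figure D1:**
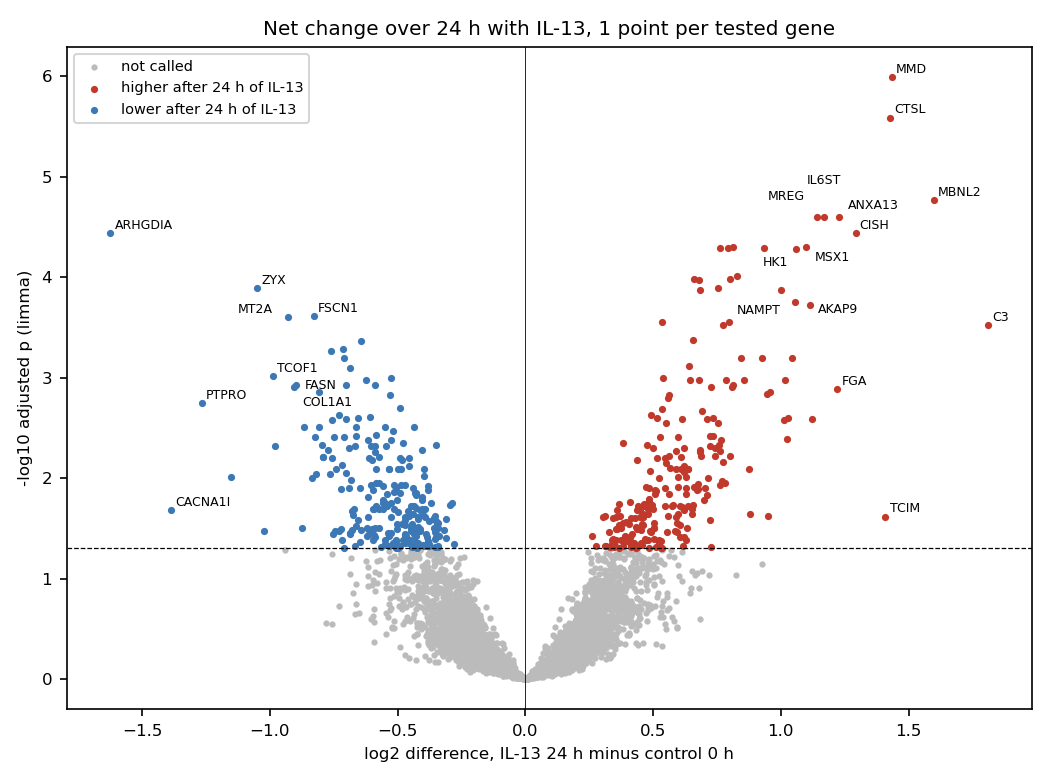
Each point is 1 of the 6884 tested genes. The horizontal axis is the log2 difference between IL-13 at 24 h and untreated cells at 0 h, and the vertical axis is -log10 of the limma adjusted p, with the dashed line at 0.05. Names mark some of the largest rises and falls. The 234 red and 239 blue points are close in number, and the points beyond 1 log2 unit lie mainly on the right.

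Genes of the IL-13 pathway come first. CISH, which binds activated cytokine receptors and is a direct target of STAT proteins, had deposited signals of 71.3, 101 and 62.5 at 0 h and 224, 238 and 214 after 24 h of IL-13. The 3 treated arrays all stood above the 3 starting ones, at more than double their level. The net rise was 1.29 ± 0.14 log2 (2.45-fold, limma adjusted p = 3.63e-05). Most of it lay in the IL-13 step (1.03), with 0.26 in the culture step (adjusted p = 0.344). Its probe set is of the _x_at kind, which can cross-hybridize, and no other probe set of the gene was on the array under that symbol alone.

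The CISH promoter is shown here because it carries a cluster of STAT half-site pairs. RefSeq places the 250 bases before its start on the minus strand of GRCh38.p14 at chr3:50611775-50612024. Capitals mark TTCNNNGAA, the palindrome that most STAT proteins bind:
CISH: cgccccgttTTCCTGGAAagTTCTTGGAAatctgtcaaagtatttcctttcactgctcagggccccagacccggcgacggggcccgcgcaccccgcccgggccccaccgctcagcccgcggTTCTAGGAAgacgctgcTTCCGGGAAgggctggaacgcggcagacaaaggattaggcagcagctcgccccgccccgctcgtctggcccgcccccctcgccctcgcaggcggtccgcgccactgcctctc
There were 4 matches, which begin at -241, -230, -129 and -112 from the start site. Windows from 250 bases before to 50 after a start were searched on both strands, and 7.66% of 35116 such promoters held the motif. The wider palindrome, TTC and GAA with 4 bases between them, the spacing STAT6 favours, was in 6.44% of them and in none of the 21 promoters of the 11 genes among the 15 largest rises that could be matched. TTCNNNGAA was in 3 of the 21 promoters, those of 3 of the 11 genes (CISH, FGA and HK1), beside 9.38% of all genes. The narrower motif was searched after the rises were known, and a match is a run of letters, not a bound site.

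BCL6, a transcriptional repressor that shares DNA sites with STAT6, had signals of 52.2, 49.5 and 45.5 at 0 h and 113, 114 and 125 after IL-13. It rose by 0.96 ± 0.16 log2 (1.94-fold, limma adjusted p = 0.00141), with 0.50 in the IL-13 step and 0.45 in the culture step, neither of which passed alone (adjusted p = 0.0649 and 0.123). Its other probe set gave 0.29. All its 0 h signals lay below the array medians (57.1 to 60.6), so BCL6 passed the brightness filter through the later arrays. TGM2, a transglutaminase that cross-links proteins and a known IL-13 target, had signals of 964, 719.9 and 804 at 0 h and 1550.4, 1297 and 1526 after IL-13. It rose by 0.80 ± 0.10 (adjusted p = 0.000104). The treated arrays of both genes lay above the starting ones. The other 3 TGM2 probe sets gave 0.90, 0.49 and -0.53, so 1 of them went the other way.

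The receptor and its transcription factor did not pass. IL13RA1 had 335, 321 and 353 at 0 h and 474, 358 and 354 after IL-13, a difference of 0.20 ± 0.13 log2 (limma adjusted p = 0.432). STAT6 had 238, 215 and 249 and 215, 226 and 229, a difference of -0.04 ± 0.11 (adjusted p = 0.875). The groups of both genes overlapped on the normalized values, although the deposited IL13RA1 signals of the treated arrays all lay above those at 0 h, by less than 1 unit at the closest. IL4R, IL13RA2 and SOCS1 lay below the brightness filter, and without the filter their adjusted p was 0.457, 0.948 and 0.747. Of the 21 tested genes of the receptor and JAK-STAT6 list, CISH and BCL6 rose net and none fell, with a list median of 0.03, and no JAK, STAT or IRS gene passed net. In the IL-13 step IRS2 (-0.95, adjusted p = 0.00102) and JAK3 (-0.56, adjusted p = 0.0224) were called lower, and CISH and PIAS3 (0.54, adjusted p = 0.0223) higher. In the culture step JAK1 (-0.32, adjusted p = 0.0388) and STAT3 (-0.35, adjusted p = 0.0495) were called lower. The net calls made up 9.52% of the list, beside 6.87% of all tested genes.

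Of 36 airway genes known to respond to IL-13, 30 had a probe set and 9 were bright enough to test. CISH and TGM2 rose (22.2% called, beside 6.87% of all tested genes), and the other 7 did not pass. MUC5AC, the gel-forming mucin of goblet cells, had 77.1, 85.8 and 132 at 0 h and 64.2, 107 and 55.7 after IL-13, overlapping values with a net difference of -0.29 ± 0.24 (limma adjusted p = 0.547). Its steps were opposed, 0.65 in culture (adjusted p = 0.135) and -0.94 with IL-13 (adjusted p = 0.0246), so MUC5AC was called lower than in untreated cells at 24 h. In the net comparison AGR2, which folds mucins, stood 0.45 higher (adjusted p = 0.0584), SPDEF, the goblet cell factor, at -0.05 and CLCA1, a secreted mucus regulator, at 0.07. GCNT3, a mucin glycosyltransferase that was named after its value was seen and is on no list, rose from 436, 491 and 461 to 980.3, 751 and 884, by 0.86 ± 0.14 (adjusted p = 0.00105). CCL26 was not analysed here, since no probe set carried its symbol alone.

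The largest rise of all was that of C3, the central complement protein, which epithelial cells secrete. Its signal was 18.3, 64.1 and 66.2 at 0 h and 219, 203 and 229.7 after 24 h of IL-13, so the treated arrays were close together and each was over 3 times the highest starting value. It rose by 1.81 ± 0.26 log2 (3.51-fold, limma adjusted p = 0.000300), 1.39 in the IL-13 step and 0.42 in the culture step. The splicing regulator MBNL2 had 82.8, 109 and 93.5 at 0 h and 312, 329.9 and 380.0 after IL-13. It rose by 1.60 ± 0.16 (3.03-fold, adjusted p = 1.72e-05), and both of its other probe sets were higher, by 0.50 and 0.87. MMD, a membrane protein first found in maturing macrophages, had 322, 283 and 315 and then 902, 839 and 869.5. The smallest adjusted p of the net comparison was that of MMD (1.02e-06), with a rise of 1.44 ± 0.11 (2.70-fold).

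CTSL, the lysosomal cysteine protease cathepsin L, had a signal of 773, 863 and 819 at 0 h and 2109, 1969 and 2469.9 after IL-13. The groups stood far apart, and the rise was 1.43 ± 0.12 (2.69-fold, limma adjusted p = 2.58e-06). Untreated cells at 24 h had 699, 743 and 884, a culture step of 0.01. Of the 35 tested genes of the lysosome list, LIPA, the acid lipase that hydrolyses cholesteryl esters (0.48 ± 0.09, adjusted p = 0.00471), was the other call, and the list median was -0.0078. The called share of the list was 5.71%, beside 6.87% of all tested genes. Cathepsins B, D and C stood at 0.17, 0.08 and 0.17 and did not pass.

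Other large rises were of varied function. HK1, the first enzyme of glycolysis, rose from 236, 219 and 236 to 554, 486 and 475 (1.06 ± 0.13, limma adjusted p = 5.26e-05) and MSX1, a homeobox factor, from 98.6, 78.2 and 99.7 to 216, 224 and 236 (1.10 ± 0.13, adjusted p = 4.98e-05). MREG, a melanosome transport factor, rose from 80.4, 80.7 and 79.4 to 241, 173 and 214 (1.14 ± 0.12). These 3 differed little between the starting and the 24 h untreated cells, with culture steps of -0.09, -0.06 and 0.12. NAMPT, the rate-limiting enzyme of NAD salvage, rose from 375, 321 and 378 to 619, 807 and 921 (1.05 ± 0.14), and its other probe set gave 0.77. ANXA13, an epithelial annexin, rose from 52.3, 60.8 and 52.7 to 152, 149 and 186 (1.23 ± 0.13), with more of the sum in the culture step (0.79) than in the IL-13 step (0.43). Less settled were the scaffold gene AKAP9 (1.11 ± 0.15), whose other probe sets stood at 0.01 and 0.02, and TCIM, a regulator of Wnt signalling. TCIM had 151, 213 and 304 at 0 h and 759, 498 and 598 after IL-13 and rose by 1.41 ± 0.36 (adjusted p = 0.0242), and its call was lost in 5 of 19 other settings, including those without IL-13 array a or c or 0 h array a or b (adjusted p = 0.0695 to 0.108).

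**Figure D2:**
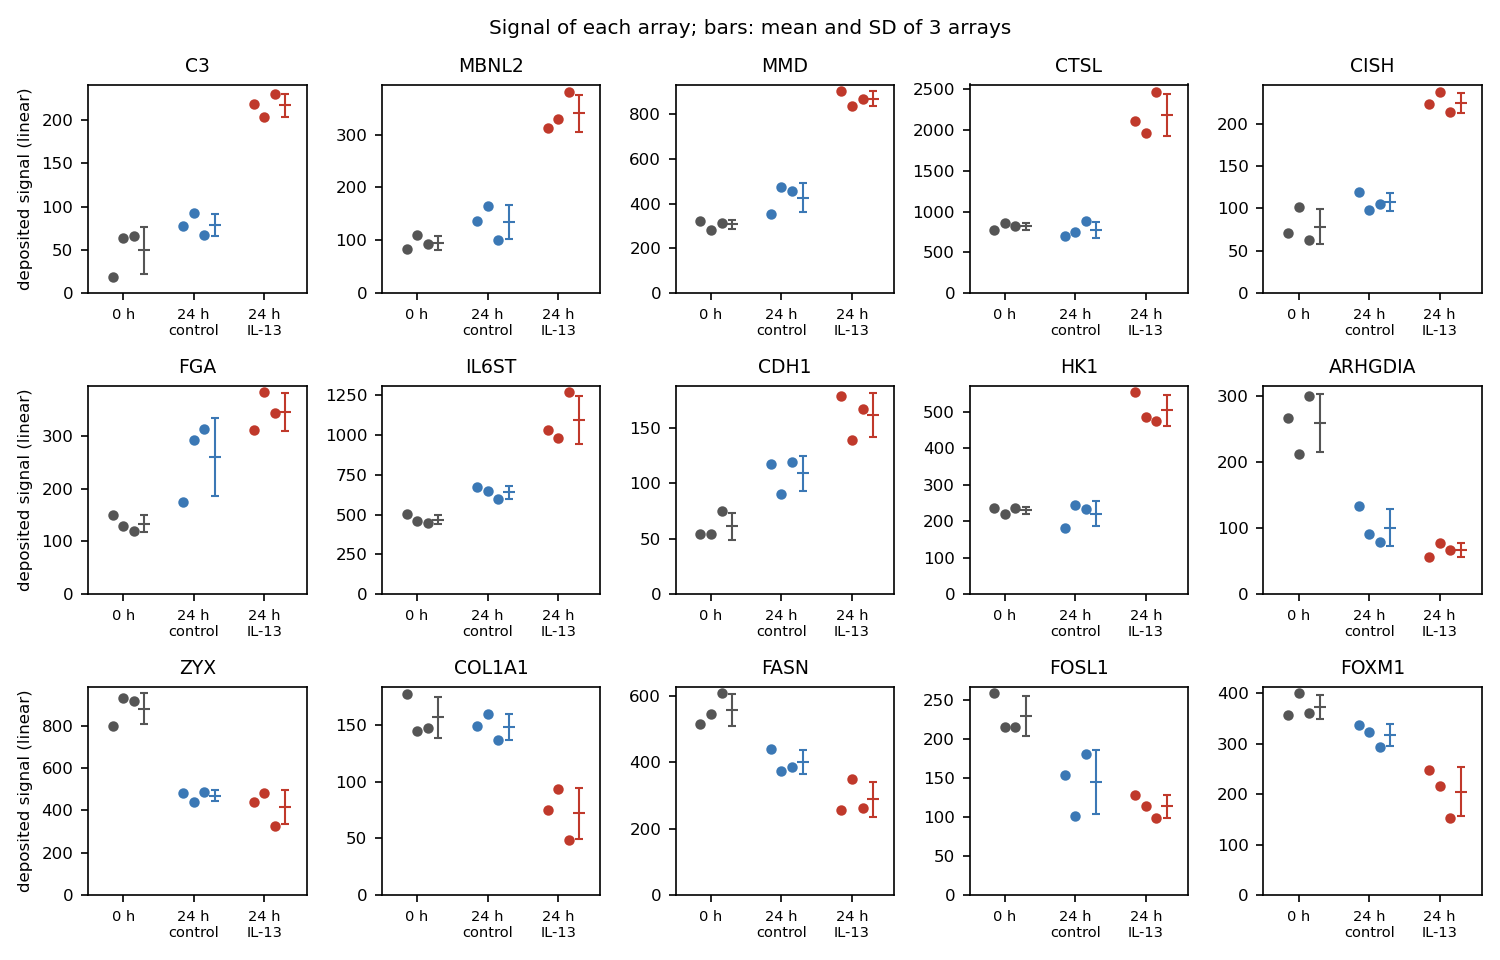
Deposited linear signal of 15 named genes on each array of untreated cells at 0 h (grey), untreated cells at 24 h (blue) and IL-13 at 24 h (red), with bars for the mean and SD of 3 arrays. In all 15 panels the red and grey points do not overlap. For C3, CTSL, CISH and HK1 the blue points lie near the grey ones, and for ARHGDIA, ZYX and FOSL1 the mean of the blue points is nearer to that of the red.

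The 3 chains of fibrinogen rose together. Fibrinogen is the clotting protein made mainly by liver and, in inflammation, by lung epithelium, as an acute-phase product of IL-6 family cytokines. Its genes FGB, FGA and FGG are neighbours on chromosome 4. FGA was among the 15 largest rises, and FGB and FGG were named after their values were seen. FGA had signals of 151, 129.7 and 120.2 at 0 h and 312, 384 and 345 after IL-13, a rise of 1.22 ± 0.20 log2 (2.33-fold, limma adjusted p = 0.00129). FGB had 90.8, 139.8 and 119 and then 273, 251 and 255 (1.02 ± 0.20, 2.03-fold, adjusted p = 0.00409). FGG had 147, 160.0 and 157 and then 356, 270.1 and 386 (1.002 ± 0.13, 2.00-fold, adjusted p = 0.000134). In each gene the lowest treated array was above the highest starting one. The sums were made up differently, with culture steps of 0.81, 0.63 and 0.42 and IL-13 steps of 0.41, 0.40 and 0.58 for FGA, FGB and FGG. Of these 6 steps, the culture step of FGA (adjusted p = 0.0352) and the IL-13 step of FGG (adjusted p = 0.0136) passed. A second FGA probe set gave 0.43 and a second FGB probe set 0.73.

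The fibrinogen promoters are printed because these neighbouring genes moved together. Each is the 250 bases before the RefSeq start on GRCh38.p14: FGB at chr4:154562730-154562979 on the plus strand, FGA at chr4:154590743-154590992 and FGG at chr4:154612657-154612906 on the minus strand. Capitals mark TTCNNNGAA in FGA and CTGGGAA, the IL-6 response motif described for acute-phase genes, in FGB and FGG:
FGA: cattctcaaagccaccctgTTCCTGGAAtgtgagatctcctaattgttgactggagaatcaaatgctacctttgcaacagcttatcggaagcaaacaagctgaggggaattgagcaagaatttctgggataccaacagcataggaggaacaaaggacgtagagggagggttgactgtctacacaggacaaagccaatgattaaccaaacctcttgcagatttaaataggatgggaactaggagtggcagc
FGB: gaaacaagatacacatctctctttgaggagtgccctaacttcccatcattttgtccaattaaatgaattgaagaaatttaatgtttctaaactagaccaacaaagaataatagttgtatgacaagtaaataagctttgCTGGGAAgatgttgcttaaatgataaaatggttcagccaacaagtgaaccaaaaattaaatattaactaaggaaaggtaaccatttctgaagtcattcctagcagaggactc
FGG: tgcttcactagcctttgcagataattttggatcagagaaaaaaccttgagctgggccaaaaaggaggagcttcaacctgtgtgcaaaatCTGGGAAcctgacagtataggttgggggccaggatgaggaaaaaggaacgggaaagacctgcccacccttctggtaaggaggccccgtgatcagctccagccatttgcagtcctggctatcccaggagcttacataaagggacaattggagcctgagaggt
The match in FGA begins at -231, that in FGB at -112 and that in FGG at -161. CTGGGAA was in 3 of the 4 promoters listed for the 3 genes, beside 10.8% of all promoters. FGB is listed with 2 promoters, and FGA did not hold the motif. By gene it was in 2 of the 3, FGB and FGG, beside 13.1% of all genes. This motif was also chosen after the rises were known.

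IL6ST and IFNGR1, chains of receptors for other cytokines, both rose. IL6ST, the signalling chain (gp130) shared by the IL-6 family, had 500.1, 457 and 447 at 0 h and 1030.1, 984 and 1269.9 after IL-13. It rose by 1.17 ± 0.12 log2 (2.25-fold, limma adjusted p = 2.53e-05), and its 4 other probe sets gave 0.35, 0.31, 0.38 and 0.86. Both steps passed for IL6ST, 0.51 in culture and 0.66 with IL-13. IFNGR1, the ligand-binding chain of the interferon gamma receptor, had 191, 200.3 and 214 and then 427, 393 and 507, a rise of 1.04 ± 0.16 (2.06-fold, adjusted p = 0.000644), with its other probe set at 1.02. IFNGR1 was named after its value was seen. The treated arrays of both genes were all above the starting ones.

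Of 22 tested genes of the interferon and MHC class I list, 5 rose and 1 fell, beside 3.4% and 3.47% of all tested genes, and the list median was 0.24. B2M, the light chain of MHC class I, had 2059, 1963 and 1919.8 at 0 h and 3045, 3063 and 3101 after IL-13, 3 tightly grouped arrays on each side (0.68 ± 0.09, 1.60-fold, limma adjusted p = 0.000134). The immunoproteasome subunits PSMB9 (0.49 ± 0.10, adjusted p = 0.00844) and PSMB10 (0.65 ± 0.16, adjusted p = 0.0185), the proteasome activator PSME1 (0.37) and IRF9, the DNA-binding part of the interferon complex ISGF3 (0.64 ± 0.14, adjusted p = 0.00803), made up the other rises. OAS3, an antiviral RNA sensor, fell (-0.43, adjusted p = 0.0470). The peptide transporter TAP1 stood at 0.07, the heavy chains of HLA-B and HLA-C near 0.05 and -0.08, and ISG15 at 0.36, and none of these passed. The rises in the list numbered 3, 5 and 3 without IL-13 array a, b or c and 3, 5 and 4 without 0 h array a, b or c. The falls, 1 in full, numbered 1, 0 and 0 without IL-13 array a, b or c and 1, 0 and 0 without 0 h array a, b or c. PSMB10 lost its call without IL-13 array a or c or 0 h array a or c (adjusted p = 0.0502 to 0.0885).

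Of 41 tested genes of the respiratory chain and ATP synthase, 7 rose and none fell, beside 3.4% higher of all tested genes. The list median was 0.19, and 38 of the 41 stood above 0. They were NDUFB5, NDUFA1, NDUFB8 and NDUFA8 of complex I, UQCRQ of complex III, and COX7C and COX6C of complex IV. COX7C had 417, 389 and 363 at 0 h and 511, 518 and 590.1 after IL-13 (0.43 ± 0.12, limma adjusted p = 0.0309), and NDUFB8 1052, 1085 and 993 and then 1299, 1501 and 1289 (0.38 ± 0.10, adjusted p = 0.0277). The other probe sets of NDUFB8 gave 0.30 and 0.00033. COX7C lost its call without IL-13 array b or c or 0 h array b or c (adjusted p = 0.0656 to 0.145) and NDUFB8 without IL-13 array b or 0 h array a, b or c (adjusted p = 0.0528 to 0.123). These were small rises, from 0.34 to 0.47, and the number of calls ran from 0 to 10 over the other settings while the list median stayed between 0.13 and 0.21. The rises numbered 4, 3 and 2 without IL-13 array a, b or c and 4, 0 and 0 without 0 h array a, b or c, and 0 with median scaling. The median was 0.27 in the IL-13 step and -0.09 in the culture step.

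Epithelial genes split. CDH1, the adherens junction cadherin, had 54.3, 53.8 and 75.1 at 0 h and 178, 139 and 167 after IL-13, a rise of 1.12 ± 0.20 log2 (2.18-fold, limma adjusted p = 0.00258), and its other probe set gave 0.37. KRT8, a keratin of simple epithelia, rose from 3836, 4459 and 3852 to 6087, 5110.0 and 5705 (0.53 ± 0.07, adjusted p = 0.000281), while KRT7 fell from 4074, 4095 and 3858 to 2847, 3028 and 2906 (-0.40 ± 0.08, adjusted p = 0.00526). The second KRT7 probe set stood at 0.19, against the direction of the first. DSP, the desmosomal plaque protein, named after its value was seen, rose from 323, 323 and 323 to 664, 574 and 697 (0.93 ± 0.11, adjusted p = 5.12e-05), most of it in the culture step (0.81). ELF3, an epithelial ETS factor, rose by 0.44 ± 0.11 (adjusted p = 0.0207). SOX9, a factor of lung progenitors, fell from 294, 306 and 324 to 191, 236 and 164 (-0.59 ± 0.13, adjusted p = 0.0113). The mesenchymal filament VIM (-0.35) and the tight junction scaffold TJP1 (-0.34) fell as well. In the identity list of 21 tested genes, 3 rose and 4 fell, with a median of -0.05. The calls were 33.3% of the list, beside 6.87% of all tested genes. The falls numbered 4, 3 and 1 without IL-13 array a, b or c and 2, 2 and 2 without 0 h array a, b or c. SOX9 lost its call without IL-13 array c (adjusted p = 0.0724) and ELF3 without IL-13 array a or b or 0 h array b (adjusted p = 0.0609 to 0.109).

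ARHGDIA and ZYX were among the 15 largest falls. ARHGDIA had 266, 211 and 299 at 0 h and 55.7, 76.8 and 66.5 after IL-13. It fell by 1.62 ± 0.18 log2 (3.08-fold, limma adjusted p = 3.63e-05), the furthest of all called falls, and its other probe sets gave -1.19, -1.25 and -0.85. Untreated cells at 24 h had 133, 90.5 and 78.2, a culture step of -1.32 (adjusted p = 0.000711) beside -0.31 in the IL-13 step (adjusted p = 0.312). ZYX, zyxin of focal adhesions, had 797, 929 and 917 at 0 h, 484, 439 and 488 in untreated cells at 24 h and 441, 483 and 326 after IL-13. It fell by 1.05 ± 0.14 (2.07-fold, adjusted p = 0.000129), with -0.81 in the culture step and -0.24 in the IL-13 step, and its other probe set gave -1.24.

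Of the 34 tested genes of the integrin, actin and adhesion list, 8 fell and 1 rose, beside 3.47% lower and 3.4% higher of all tested genes, and the median was -0.23. ACTN4, an actin cross-linker, fell from 2843, 2779 and 3222 to 1762, 1715 and 1796 (-0.72 ± 0.11, limma adjusted p = 0.000514), and MYH9, non-muscle myosin heavy chain, from 600.2, 554 and 499 to 389, 241 and 341 (-0.76 ± 0.16, adjusted p = 0.00630). TAGLN, an actin-binding protein of contractile cells, fell by 0.74 ± 0.16 and the integrin linker TLN1 by 0.62 ± 0.16. TPM1, CNN2 and MSN, which also bind actin, stood at -0.44, -0.44 and -0.41 and were the remaining falls. CD44, the hyaluronan receptor, rose from 790.4, 793 and 729 to 1407, 1195 and 1405 (0.76 ± 0.09, adjusted p = 5.12e-05), with 5 of its 7 other probe sets higher. Over the list the median was -0.13 in the culture step, where 6 genes fell, and -0.08 in the IL-13 step, where none fell. Outside the list, the actin bundler FSCN1 fell from 556, 448 and 576 to 292, 301 and 259 (-0.83 ± 0.11, adjusted p = 0.000243). The cytolinker PLEC fell from 299, 276 and 323 to 162, 122 and 85.8 (-1.15 ± 0.25, adjusted p = 0.00982), with its other probe set at -0.17, and its call was lost without IL-13 array c (adjusted p = 0.0634). The number of falls in the list ran from 3 to 11 over the other settings. It was 5, 7 and 3 without IL-13 array a, b or c and 6, 5 and 5 without 0 h array a, b or c. TAGLN lost its call without IL-13 array c (adjusted p = 0.0548) and TLN1 without IL-13 array b or c or 0 h array a (adjusted p = 0.0563 to 0.125). The beta-actin 3'/5' ratio differed between the same groups, as given above.

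Of 39 tested genes of the matrix, growth factor and TGF-beta target list, 11 fell and 1 rose, beside 3.47% lower and 3.4% higher of all tested genes. The list median was -0.24, and 10 members stood above 0. LAMA5, a laminin chain of epithelial basement membranes, fell from 402, 363 and 344 to 191, 228 and 229 (-0.70 ± 0.12, limma adjusted p = 0.00119), and LAMC1 from 540.2, 551 and 441 to 355, 334 and 339 (-0.55 ± 0.11, adjusted p = 0.00480). Their falls lay in the IL-13 step, -0.78 and -0.50, with 0.08 and -0.04 in culture. COL4A1 fell from 521, 576 and 459 to 360.1, 312 and 253 (-0.71 ± 0.14) and its partner chain COL4A2 from 638, 660.5 and 667 to 469, 398 and 317 (-0.70 ± 0.15). Both are chains of type IV collagen, the sheet of the basement membrane. TIMP2, an inhibitor of matrix metalloproteinases, fell from 216, 205 and 224 to 163, 106 and 84.4 (-0.77 ± 0.15). MMP7, a matrix metalloproteinase of epithelial cells, was the rise (0.60). Beside COL1A1, the remaining falls were those of the collagen COL5A1 (-0.72), the collagen cross-linking enzyme LOXL2 (-0.54), the growth factors TGFB1 (-0.59) and TGFB2 (-0.56) and endothelin 1, EDN1 (-0.35). The falls in the list numbered 11, 8 and 6 without IL-13 array a, b or c and 8, 8 and 8 without 0 h array a, b or c. COL4A2 lost its call without IL-13 array c (adjusted p = 0.0619).

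COL1A1, the main chain of type I collagen, had 178, 145 and 148 at 0 h and 75.2, 93.4 and 48.6 after IL-13 and fell by 0.91 ± 0.15 (limma adjusted p = 0.00125). Its 3 other probe sets did not share this, at 0.20, 0.02 and -0.28, and its call was lost with the mean of probe sets. COL1A1 is also a fibroblast marker. The summed signal of the 10 fibroblast markers was 403 to 420 at 0 h, 255 to 343 after IL-13 and 468 to 473 in untreated cells at 24 h, and COL1A1 and THY1 were the bright ones. The other 8 (COL1A2, COL3A1, DCN, FAP, LUM, PDGFRA, PDGFRB and POSTN) were dim. The part of such cells in the falls of matrix genes was not tested, and in these bulk samples fewer cells of a type and less RNA per cell cannot be told apart.

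Of 45 tested genes of the mitosis (G2/M) list, 12 fell and none rose, beside 3.47% lower of all tested genes, 41 stood below 0 and the median was -0.29. FOXM1, the transcription factor that drives the mitotic genes, had 357, 401 and 359.9 at 0 h and 247, 216 and 152 after IL-13 (-0.81 ± 0.14, limma adjusted p = 0.00141). CDC25B, the phosphatase that switches on CDK1, fell from 809, 1034 and 928 to 607, 605 and 501 (-0.66 ± 0.12), and CDC20, an activator of the anaphase-promoting complex, from 568, 632 and 569.8 to 400.0, 402 and 347 (-0.58 ± 0.11, adjusted p = 0.00371). UBE2C, the ubiquitin-conjugating enzyme of that complex, fell from 913, 971 and 917 to 720.3, 600.0 and 588 (-0.53 ± 0.09, adjusted p = 0.00149). No array of one group reached into the other for these 4. PTTG1, the securin that holds separase in check, fell by 0.59 ± 0.12, and the others called were separase itself (ESPL1, -0.57), the spindle factor TPX2 (-0.53), survivin (BIRC5, -0.44), the checkpoint kinase BUB1B (-0.44), CKS2 (-0.34) and the cyclins CCNA2 (-0.40) and CCNB2 (-0.34). The list median was -0.29 in the IL-13 step and 0.01 in the culture step. Over the other settings 6 to 16 members fell, with 8, 7 and 8 without IL-13 array a, b or c and 9, 6 and 8 without 0 h array a, b or c.

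Promoters of the called mitotic genes are shown by 2 examples, because such genes are known to carry the CHR element (TTTGAA or TTTAAA), through which the DREAM and MuvB complexes time their expression. CDC20 lies on the plus strand of GRCh38.p14 with its 250 bases at chr1:43358731-43358980, and CCNB2 on the plus strand at chr15:59104896-59105145. Capitals mark matches to these letters on either strand:
CDC20: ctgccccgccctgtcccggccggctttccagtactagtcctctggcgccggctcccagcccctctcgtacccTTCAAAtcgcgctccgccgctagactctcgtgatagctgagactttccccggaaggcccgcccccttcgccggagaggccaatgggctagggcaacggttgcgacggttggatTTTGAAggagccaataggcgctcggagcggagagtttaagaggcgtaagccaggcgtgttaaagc
CCNB2: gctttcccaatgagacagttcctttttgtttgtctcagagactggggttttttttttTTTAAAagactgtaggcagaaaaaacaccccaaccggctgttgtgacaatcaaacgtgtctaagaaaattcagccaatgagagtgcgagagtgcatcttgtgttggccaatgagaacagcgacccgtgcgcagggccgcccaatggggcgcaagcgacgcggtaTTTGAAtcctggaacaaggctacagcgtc
In CDC20 the matches begin at -178 and -65, the first as TTCAAA on the opposite strand, and in CCNB2 at -193 and -29. Of the 12 called genes 8 were matched to RefSeq promoters, and 8 of their 12 promoters, belonging to 7 of the 8 genes, held such a match. Matches were in 24.0% of all 35116 promoters and in those of 27.9% of genes. Here too a match is a run of letters, not a bound site. CCNB2 itself fell by 0.34 ± 0.10 (limma adjusted p = 0.0369), a call that was lost in 9 of 19 other settings, among them those without IL-13 array a, b or c or 0 h array b or c (adjusted p = 0.0553 to 0.142).

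Of 43 tested genes of the DNA replication list, 5 fell and none rose, beside 3.47% lower and 3.4% higher of all tested genes. In this list 35 stood below 0 and the median was -0.17. MCM10, which helps start the replication fork, had 187, 201 and 241 at 0 h and 59.9, 129 and 141 after IL-13 (-0.83 ± 0.18, limma adjusted p = 0.0101), with 1 treated array well below the rest. RRM2, the subunit that limits ribonucleotide reductase, fell from 1009.5, 872 and 958 to 595, 572 and 602 (-0.65 ± 0.12, adjusted p = 0.00253). TYMS, which makes thymidylate, fell by 0.48 ± 0.09 (other probe set -0.10) and the helicase subunit MCM2 by 0.60 ± 0.14. POLA2 of the DNA polymerase alpha complex was the other call (-0.71). These genes had culture steps of 0.18, -0.23, 0.12 and 0.08 in the order MCM10, RRM2, TYMS and MCM2, none of which passed. GADD45A, a stress-induced inhibitor of the cell cycle, rose from 305, 337 and 446 to 614, 587 and 517 (0.63 ± 0.14, adjusted p = 0.0125). SFN, 14-3-3 sigma, a p53 target that holds cells in G2, fell from 2412, 2688 and 2286 to 1757, 1870.2 and 1763 (-0.43 ± 0.08, adjusted p = 0.00309). Of 19 tested genes of the p53 and arrest list 1 rose and 2 fell, with a median of 0.10. The calls were 15.8% of that list, beside 6.87% of all tested genes. BTG1, an antiproliferative gene, was the other fall (-0.43 ± 0.13). The falls of the replication list numbered 3, 4 and 5 without IL-13 array a, b or c and 4, 4 and 3 without 0 h array a, b or c. MCM10 lost its call without 0 h array c (adjusted p = 0.0541), MCM2 without IL-13 array a (adjusted p = 0.0653), GADD45A without 0 h array a or b (adjusted p = 0.0541 to 0.0645) and BTG1 without IL-13 array b or c or 0 h array a or b (adjusted p = 0.0717 to 0.250).

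**Figure D3:**
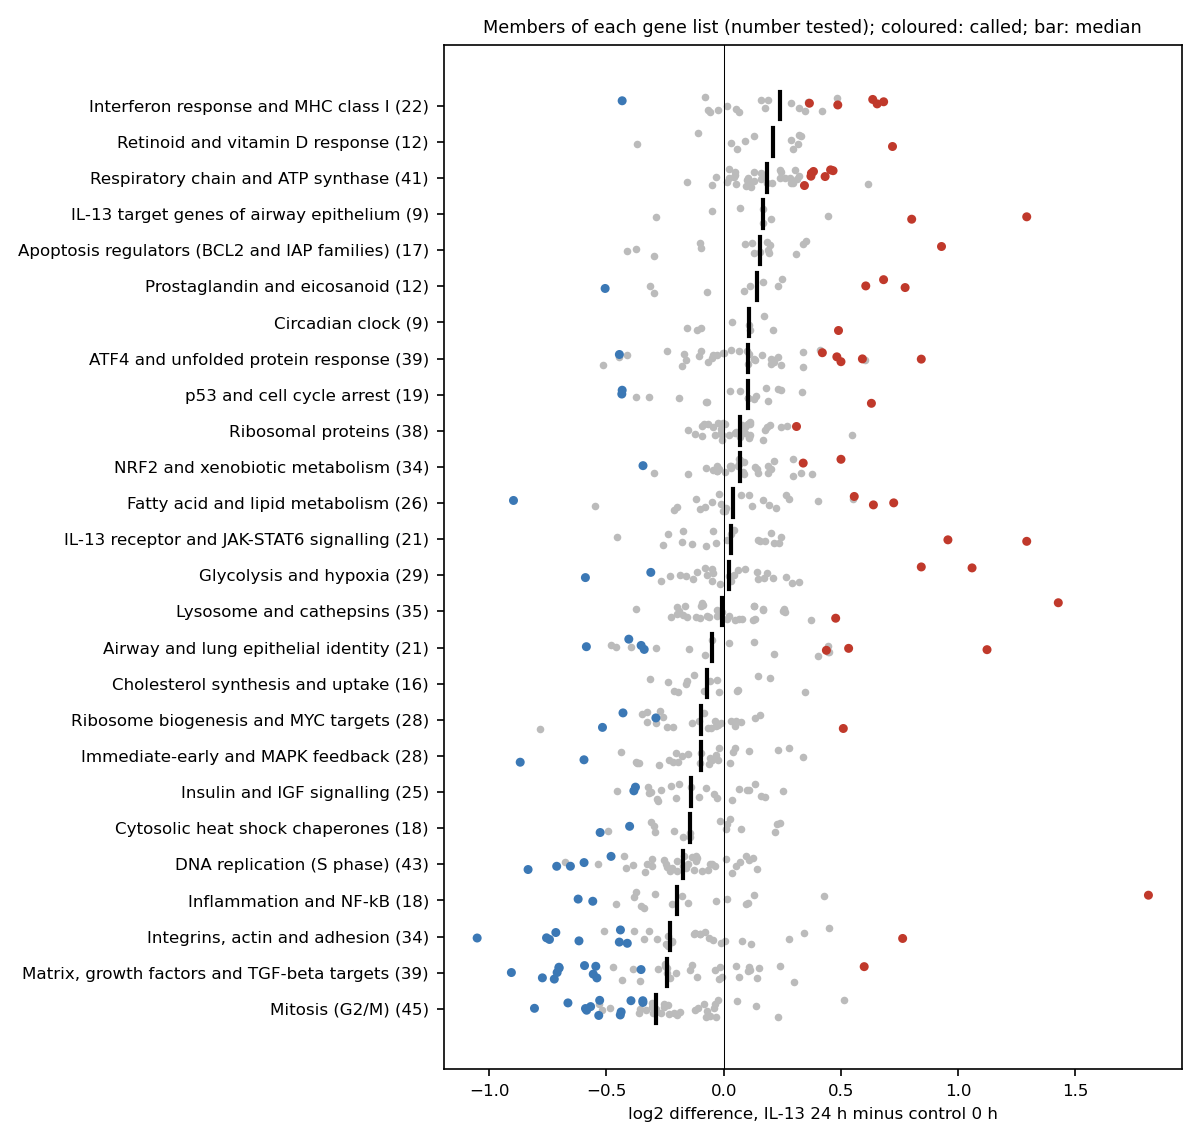
Net log2 difference (IL-13 24 h minus untreated 0 h) of each tested member of 26 gene lists, with the number tested in parentheses. Red and blue points are called higher and lower, grey points are not called, and the black bar is the list median. The mitosis, matrix and adhesion lists lie lowest, with medians of -0.29, -0.24 and -0.23, and the interferon and MHC class I list highest, at 0.24.

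Metabolic genes were called in both directions. FASN, fatty acid synthase, fell from 517, 548 and 611 to 256, 349.5 and 262 (-0.90 ± 0.15, limma adjusted p = 0.00119), though its other probe set gave 0.14. ELOVL5, an elongase of polyunsaturated fatty acids, rose from 501, 561 and 579 to 866, 810.2 and 902 (0.64 ± 0.10, adjusted p = 0.000760), with its other probe sets at -0.04 and 0.04. PPARG, the lipid-sensing nuclear receptor, rose from 126, 114 and 134 to 184, 202 and 198 (0.56 ± 0.14, adjusted p = 0.0238), the sum of 0.87 in the IL-13 step and -0.31 in culture. Of the 29 glycolysis and hypoxia genes 2 rose and 2 fell (13.8% called, beside 6.87% of all tested genes). Besides HK1 these were DDIT4, PFKFB3, which makes the activator of phosphofructokinase (-0.59 ± 0.17), and PKM, pyruvate kinase (-0.31 ± 0.08, other probe set -0.13). Calls were lost for PPARG without IL-13 array b or c or 0 h array a, b or c (adjusted p = 0.0514 to 0.0906), for PFKFB3 without IL-13 array a or b or 0 h array a, b or c (adjusted p = 0.0665 to 0.169) and for PKM without IL-13 array c or 0 h array b or c (adjusted p = 0.0979 to 0.155). No gene of the 16 tested for cholesterol synthesis passed. MT2A, a metallothionein that buffers zinc and copper, fell from 2603, 2487 and 1874 to 1224, 1339 and 1109 (-0.93 ± 0.13, adjusted p = 0.000247), and it was measured on a probe set of the _x_at kind, which other metallothioneins can share. NNMT, nicotinamide N-methyltransferase, rose from 789, 1025 and 893 to 1684, 1526 and 1483 (0.79 ± 0.09, adjusted p = 5.12e-05).

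Eicosanoid enzymes gave 3 rises and 1 fall among 12 tested genes (33.3% called, beside 6.87% of all tested genes). HPGD, which inactivates prostaglandin E2, rose from 345, 339 and 430.2 to 647, 589 and 721 (0.77 ± 0.11, limma adjusted p = 0.000300), and its other 3 probe sets gave 0.39, 0.60 and 0.26. PLA2G4A, the phospholipase that frees arachidonic acid, rose from 125, 114 and 121 to 192, 195 and 238 (0.68 ± 0.14, adjusted p = 0.00548). PTGS2, the inducible cyclooxygenase, rose from 102, 64.7 and 73.3 to 138, 142 and 118 (0.61 ± 0.17, adjusted p = 0.0390), and untreated cells at 24 h stood higher still, at 219, 214 and 226. The steps of PTGS2 were 1.21 in culture and -0.61 with IL-13, while those of HPGD were 0.24 and 0.53. ALOX5AP, which serves leukotriene synthesis, fell by 0.51 ± 0.14 (adjusted p = 0.0417). The calls of PTGS2 and ALOX5AP were each lost in 8 of 18 other settings, for PTGS2 without IL-13 array a, b or c or 0 h array b or c (adjusted p = 0.0747 to 0.155) and for ALOX5AP without IL-13 array a, b or c or 0 h array a, b or c (adjusted p = 0.0545 to 0.166).

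Stress and early response genes were mixed. Of the 39 tested genes of the ATF4 and unfolded protein list 5 rose and 1 fell, with a median of 0.10. The calls were 15.4% of the list, beside 6.87% of all tested genes. DDIT4, an inhibitor of mTORC1, rose from 913, 884 and 1201 to 1977, 1605 and 1769 (0.84 ± 0.13, limma adjusted p = 0.000645), nearly all of it in the culture step (0.88 against -0.04 with IL-13). DDIT3, the transcription factor CHOP, rose by 0.59 ± 0.16 (adjusted p = 0.0282), SLC7A11, the cystine transporter, by 0.50 ± 0.12 (adjusted p = 0.0204), and its partner chain SLC3A2 fell by 0.44 ± 0.12 (adjusted p = 0.0292). PMAIP1, the BH3-only protein NOXA, which neutralises MCL1, rose from 229.9, 198 and 227 to 453, 381 and 464 (0.93 ± 0.14, adjusted p = 0.000644). It was the call among 17 apoptosis regulators (5.88%). The rises in the ATF4 list numbered 3, 2 and 1 without IL-13 array a, b or c and 4, 2 and 2 without 0 h array a, b or c. DDIT3 lost its call without IL-13 array b or c or 0 h array c (adjusted p = 0.0820 to 0.151), SLC7A11 without IL-13 array a or c or 0 h array b or c (adjusted p = 0.0511 to 0.129) and SLC3A2 without IL-13 array b or c or 0 h array a, b or c (adjusted p = 0.0576 to 0.127).

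Of 28 immediate-early and MAPK feedback genes 2 fell and none rose, 7.14% called beside 6.87% of all tested genes. FOSL1, an AP-1 subunit, had 259.5, 215 and 215 at 0 h, 154, 101 and 181 in untreated cells at 24 h and 128, 114 and 99.1 after IL-13. It fell by 0.87 ± 0.16 (limma adjusted p = 0.00310), with -0.67 in the culture step. CCN1, a matricellular target of YAP and serum, fell by 0.60 ± 0.17 (adjusted p = 0.0417), and its call was lost in 8 of 19 other settings, among them those without IL-13 array b or c or 0 h array a, b or c (adjusted p = 0.0933 to 0.214). Among 18 inflammation genes (16.7% called) C3 rose, and the chemokine CXCL2 (-0.56 ± 0.14) and the NF-kB subunit RELB (-0.62 ± 0.17) fell. The chaperones HSP90AB1 (-0.53 ± 0.08, adjusted p = 0.00101) and DNAJB1 (-0.40 ± 0.10) fell, and ODC1, the first enzyme of polyamine synthesis, fell from 1419, 1418 and 1309 to 944, 1086 and 881 (-0.52 ± 0.10, adjusted p = 0.00344). CXCL2 lost its call without IL-13 array a, b or c or 0 h array a, b or c (adjusted p = 0.0520 to 0.0794), RELB without IL-13 array c or 0 h array b or c (adjusted p = 0.0794 to 0.188) and DNAJB1 without IL-13 array b or c or 0 h array b or c (adjusted p = 0.0684 to 0.124).

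The remaining lists and the lipid list held 1 to 4 calls each. The share of tested members called ran from 2.63% (ribosomal proteins) to 14.3% (ribosome biogenesis) and 15.4% (lipid), beside 6.87% of all tested genes. Of 34 tested genes of the NRF2 and xenobiotic list 2 rose and 1 fell, with a median of 0.07. Beside SLC7A11 these were GPX2, a glutathione peroxidase (0.34 ± 0.10, limma adjusted p = 0.0451), and ALDH3A1, an aldehyde dehydrogenase (-0.34 ± 0.10, adjusted p = 0.0476), which fell. In the insulin and IGF list of 25 genes GRB10, an adaptor that restrains the insulin receptor, fell by 0.38 ± 0.09 and the kinase GSK3A by 0.38 ± 0.11 (other probe set of GSK3A -0.09), with a list median of -0.14. RARRES1, a retinoid-induced membrane protein, rose from 109, 80.7 and 109 to 154, 209 and 173 (0.72 ± 0.16, adjusted p = 0.00993). It was the call among 12 retinoid and vitamin D genes, and its other probe sets gave 0.85 and 0.93. NFIL3, a repressor of clock genes, was the call among 9 clock genes (0.49 ± 0.13), and RPS9 that among 38 ribosomal proteins (0.31 ± 0.08). Of 28 ribosome biogenesis and MYC target genes ODC1, the fibrillarin gene FBL (-0.29 ± 0.07) and MYBBP1A (-0.43 ± 0.13) fell and the helicase DDX21 (0.51 ± 0.15) rose, with a median of -0.09. APOH, beta-2-glycoprotein I, rose by 0.73 ± 0.21 in the lipid list, where 3 of 26 tested genes rose and 1 fell. The calls were lost without IL-13 array a or c or 0 h array a or b (adjusted p = 0.0852 to 0.217) for GPX2, IL-13 array b or c or 0 h array a, b or c (adjusted p = 0.0510 to 0.192) for ALDH3A1, IL-13 array c or 0 h array b (adjusted p = 0.0606 to 0.0695) for GRB10 and IL-13 array a or c or 0 h array a, b or c (adjusted p = 0.0815 to 0.189) for GSK3A. The same held without 0 h array b (adjusted p = 0.0566) for RARRES1, IL-13 array a or b or 0 h array a or b (adjusted p = 0.0877 to 0.127) for NFIL3, IL-13 array a or c or 0 h array b or c (adjusted p = 0.0570 to 0.105) for RPS9 and IL-13 array a, b or c or 0 h array c (adjusted p = 0.0632 to 0.220) for APOH. It held without IL-13 array b or 0 h array a or b (adjusted p = 0.0558 to 0.0737) for FBL, IL-13 array a, b or c or 0 h array a, b or c (adjusted p = 0.0655 to 0.199) for MYBBP1A and IL-13 array b or c or 0 h array a, b or c (adjusted p = 0.0618 to 0.261) for DDX21.

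Several large falls belonged to no list. TCOF1, a nucleolar factor of ribosomal RNA transcription, fell from 269, 224 and 366 to 121, 158 and 108 (-0.99 ± 0.16, limma adjusted p = 0.000966), and SLC52A2, a riboflavin transporter, from 365, 435 and 362 to 261, 141 and 169 (-0.98 ± 0.19). Their other probe sets gave -0.32 for TCOF1 and -0.19 for SLC52A2. PTPRO, a receptor tyrosine phosphatase, had 1954, 1762 and 3312 at 0 h and 837, 1258 and 803 after IL-13 (-1.27 ± 0.22, adjusted p = 0.00181), while its second probe set gave 0.19. The calcium channel gene CACNA1I (-1.39 ± 0.35) lost its call in 6 of 17 other settings and its other probe sets stood at -0.11 and 0.16, and NPIPA1 (-1.02 ± 0.28), one of a family of near-identical copies, lost its call in 7 of 19. MFGE8, a secreted bridge between dying cells and phagocytes, fell by 0.87 ± 0.24, and its call was lost in 8 of 19. Among these settings were those without IL-13 array a or b or 0 h array b or c (adjusted p = 0.0568 to 0.0842) for CACNA1I, IL-13 array b or c or 0 h array a, b or c (adjusted p = 0.0785 to 0.152) for NPIPA1 and IL-13 array a, b or c or 0 h array a, b or c (adjusted p = 0.0639 to 0.0938) for MFGE8.

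A net difference can be small where the steps are opposed. In some genes both steps were called, in opposite directions, and the net difference did not pass. The 8 of these with the largest IL-13 step are given here as a description. Both steps hold the untreated 24 h arrays, with opposite sign, so a deviation of those arrays alone can give both calls. This was not tested. VCAN, the matrix proteoglycan versican, had 341, 248 and 234 at 0 h, 519, 466 and 509 in untreated cells at 24 h and 226, 247 and 205 with IL-13. The treated arrays were within the range of the start or just below it, and the net difference was -0.23 ± 0.13 (limma adjusted p = 0.336). FLRT2, a membrane protein of cell guidance, went the same way, 0.74 and then -1.03, with a net -0.29. SCD5, a stearoyl-CoA desaturase, had steps of 1.45 and -1.23, and 1 treated array stood at 515 while the others were at 174 and 135.

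The other 5 went down without IL-13 and stood higher with it. USF2, an E-box transcription factor, had 292, 234 and 350.3 at 0 h, 93.1, 75.8 and 97.0 in untreated cells at 24 h and 178, 208 and 163 with IL-13. Its net difference was -0.59 ± 0.18 (adjusted p = 0.0524), close to the threshold. The net differences were -0.45 for the synaptic adhesion gene LRFN4, 0.13 for ATF6, a sensor of endoplasmic reticulum stress, 0.29 for the phosphoesterase MPPE1 and 0.36 for the phosphatase PPM1A. Their culture steps were -1.54, -1.01, -1.21 and -0.57 and their IL-13 steps 1.09, 1.14, 1.504 and 0.94, in the same order. That no net call was made does not show that these genes ended where they began.

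In another set of 5 genes both steps passed in the same direction: MMD, IL6ST, AKAP9, MORC4 and NNMT. MORC4, a chromatin-associated ATPase, had 382, 407 and 438 at 0 h, 565, 523 and 548 in untreated cells at 24 h and 739, 753 and 715 with IL-13, a net 0.81 ± 0.09 (limma adjusted p = 4.98e-05). For MMD the corresponding values at 24 h without IL-13 were 352, 475 and 455, between the other groups. Its culture step was 0.48 (adjusted p = 0.0251) and its IL-13 step 0.96 (adjusted p = 5.62e-05).

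In 5 further genes, named after their values were seen, the net difference passed in one direction and the culture step in the other. RGS2, which shortens G protein signals, had 169.5, 179 and 191 at 0 h, 127, 153 and 77.9 in untreated cells at 24 h and 364, 412 and 382 with IL-13. The net rise was 1.02 ± 0.16 (2.03-fold, limma adjusted p = 0.00106), against a culture step of -0.65 ± 0.16 (adjusted p = 0.0360). SLC26A2, a sulfate transporter, had 481, 469.7 and 428, 345, 346 and 273 and 724, 636 and 662 in the same order of groups, a net 0.53 ± 0.10 (adjusted p = 0.00392) against -0.48 ± 0.10. For PSMB9, the immunoproteasome subunit, untreated cells at 24 h had 106, 105 and 105, and the steps were -0.44 and 0.93. MSRB1, a methionine sulfoxide reductase, rose by 0.39 ± 0.11 net against -0.40 in culture. SOX4, a developmental transcription factor, was the one that went down, from 595, 684 and 719 to 464, 513 and 500.1, a net -0.41 ± 0.10 (adjusted p = 0.0165) against 0.35 in culture. MSRB1 lost its net call without IL-13 array a or c or 0 h array a, b or c (adjusted p = 0.0529 to 0.173) and SOX4 without IL-13 array a or c or 0 h array b or c (adjusted p = 0.0548 to 0.0835).

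**Figure D4:**
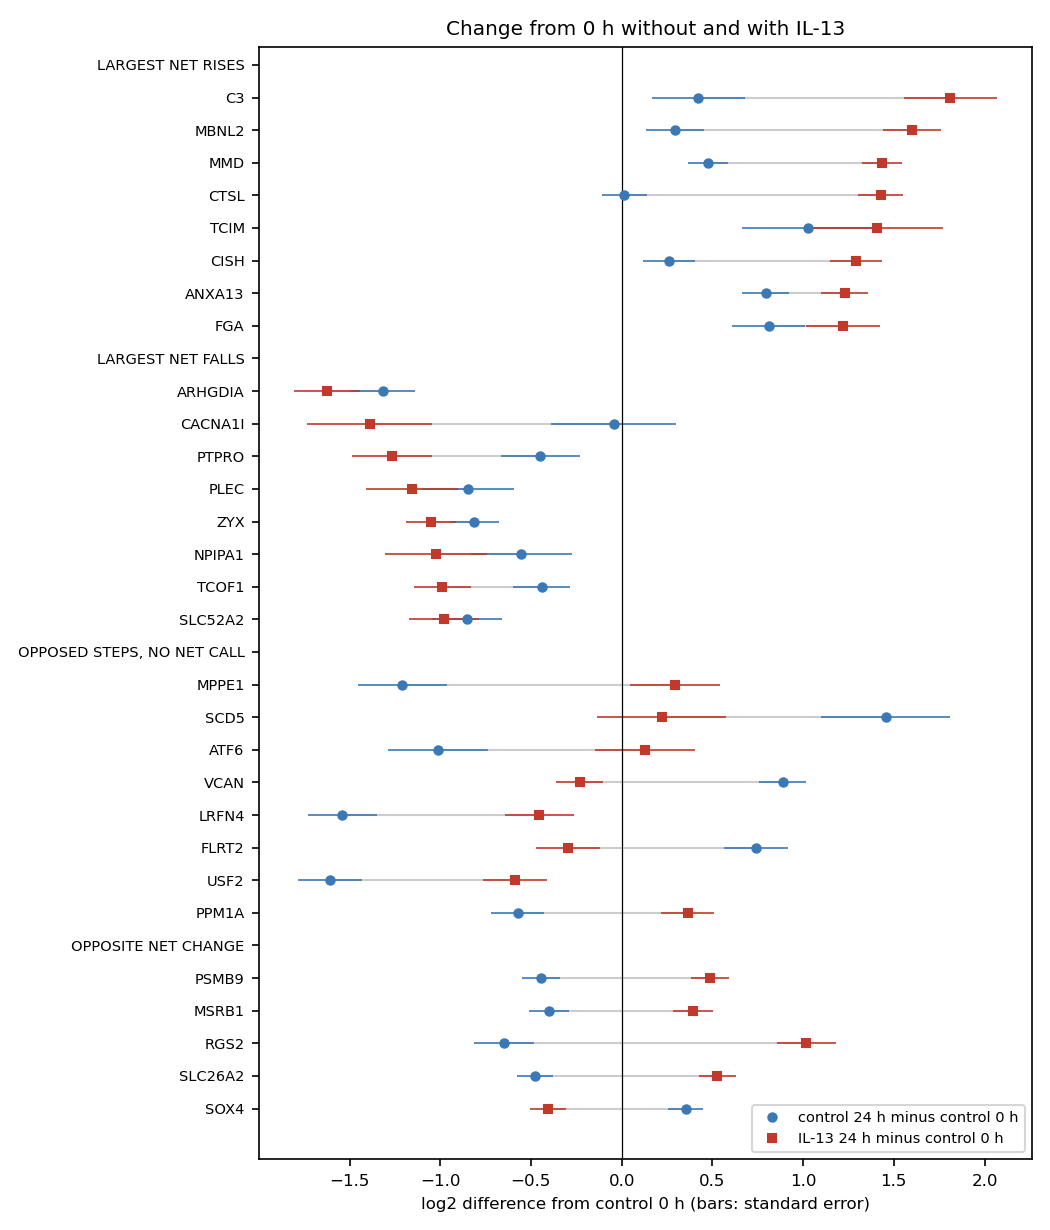
Log2 difference from untreated cells at 0 h, with standard errors, for untreated cells at 24 h (blue circles) and cells with IL-13 at 24 h (red squares). A line joins the points of a gene, and its length is the IL-13 step. For ARHGDIA and ZYX both points lie on the left, for the 8 genes shown with opposed steps and no net call the red squares lie nearer 0 than the blue circles, and for RGS2, SLC26A2, PSMB9, MSRB1 and SOX4 the points lie on opposite sides of 0. The patterns of the opposed genes follow largely from how they were chosen.

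The arrays at 4 h and 12 h of IL-13 show when the net differences appeared. No untreated arrays at those times are labelled, so these values hold time in culture too, and they share the 0 h arrays with the net comparison. CISH stood 1.44 above 0 h at 4 h, 1.29 at 12 h and 1.29 at 24 h, already at its level at the first time. MSX1 (0.87, 0.69 and 1.10), TGM2 (0.70, 0.81 and 0.80) and BCL6 (0.68, 0.77 and 0.96) also stood higher at 4 h. CTSL (0.40, 0.93 and 1.43), C3 (0.49, 1.09 and 1.81) and MBNL2 (0.33, 0.72 and 1.60) stood higher at each later time. IL6ST was at -0.0098 at 4 h, 0.44 at 12 h and 1.17 at 24 h, and B2M at -0.04, 0.21 and 0.68.

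Other genes turned within the day. DDIT4 had 549, 747 and 628 at 4 h, 718, 786 and 747 at 12 h and 1977, 1605 and 1769 at 24 h, below the start (-0.60 and -0.36) and then above it (0.84). PMAIP1 followed the same course, -0.76, -0.77 and 0.93. CXCL2 was lowest at the earlier times (-1.44 and -1.38) and at -0.56 at 24 h, and CCN1 had -1.004, -1.43 and -0.60. ZYX and ARHGDIA were near the start at 4 h (-0.04 and -0.05) and lower at 12 h (-0.58 and -1.12). The mitotic genes UBE2C (0.03 and -0.0073) and CDC20 (0.11 and -0.09) stood within 0.11 of the start at 4 h and 12 h, and FOXM1 was at 0.19 and -0.56.

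**Figure D5:**
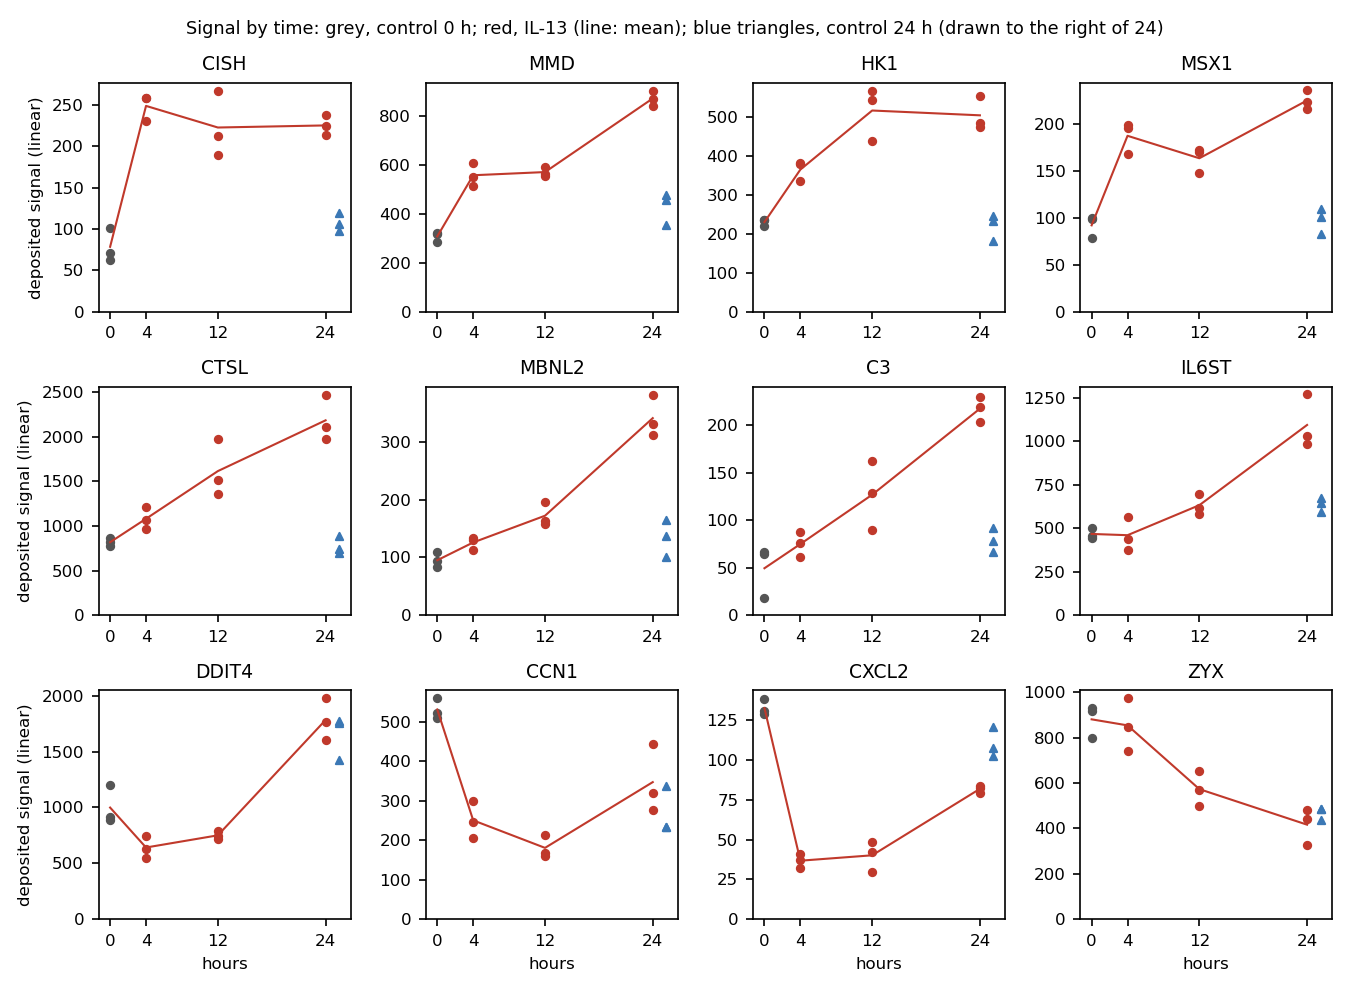
Deposited linear signal of 12 genes on each array at 0 h (grey), with IL-13 at 4, 12 and 24 h (red, line through the means) and without IL-13 at 24 h (blue triangles, drawn to the right of 24 h). CISH is high from 4 h on, CTSL, MBNL2 and C3 are higher at each later time, and DDIT4, CCN1 and CXCL2 dip at 4 h and 12 h.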

How the data were processed

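The authors deposited a linear signal intensity for each of 22283 probe sets on 15 arrays. Their software and settings are not given in the sources used here. After removal of 2% of values at either end every array averaged 150.0, the usual outcome of MAS 5.0 scaling. From these, log2(signal + 20) was taken (20 is the 25th percentile), and arrays were quantile normalized, since their medians differed by up to 0.269 log2. A gene was read from its brightest probe set with a single symbol, and from an _x_at set only where it had no other, as for CISH, MT2A, FOXM1, PTTG1, KRT8, CXCL2, USF2, MPPE1 and NPIPA1. Genes with a mean over 6.33 log2 across all 15 arrays were tested (6884 of 11963). A gene dim at 0 h could thus be tested through later arrays where it was bright. Some or all 0 h signals of BCL6, C3, ANXA13 and CDH1 lay below the array medians.

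limma 3.58.1 in R 4.3.3 was fitted to the 5 groups of all 15 arrays together, with 10 residual degrees of freedom, moderated variances that follow a trend, two-sided p-values and the Benjamini-Hochberg method over all tested genes. The steps were also tested on simulated data. Per-array values in the text are deposited signals, before normalization, and 3 arrays per group limit the precision.

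The genes described are the 15 largest rises and 15 largest falls among called genes whose groups do not overlap, up to 4 called members of each list with the smallest p, MUC5AC, CCL26, CISH, SOCS1, STAT6 and the receptor chains IL4R, IL13RA1 and IL13RA2, and genes whose steps were both called (all that moved the same way, and the 8 with the largest IL-13 step among those with opposed steps and no net call). FGB, FGG, IFNGR1, DSP and GCNT3, list members beyond the first 4, genes printed to show uncalled members, and the 5 genes whose net and culture differences were opposed were named after their values were seen. The comparison, gene lists and motifs were chosen with earlier results of these data known. The 4 motifs were searched in RefSeq promoter windows of GRCh38.p14. Alternatives were the deposited scaling, median scaling over all or over the tested genes, pseudocounts of 1 and 62, no filter, a stricter one (75th percentile), means of probe sets, every probe set, only the compared groups, no variance trend, array weights, a replicate block and leaving out each array.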

Additional observations from a re-analysis of the deposited data

Results flagged for a closer look

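In 5 genes the change from 0 h had one sign with IL-13 and the other without it, and both passed in limma. The genes were chosen by these signs, which fixes the direction of the difference and favours a large one, so it is given as a description with no p. The difference between the changes, which is the IL-13 step, was 1.67 ± 0.16 log2 for RGS2, 1.004 ± 0.10 for SLC26A2, 0.93 ± 0.10 for PSMB9, 0.79 ± 0.11 for MSRB1 and -0.76 ± 0.10 for SOX4. The net call was lost in 10 of 19 other settings for MSRB1 and in 5 of 19 for SOX4. Other probe sets of SOX4 gave -0.44, -0.43, 0.12 and -0.66 net.

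The gene tests used no probe set with several symbols or no symbol. Of 1257 such sets bright enough to test, limma called 68 net (5.41%), 29 higher and 39 lower. The largest rise was that of 216236_s_at, 1.25 ± 0.18 log2 (adjusted p = 0.000359), with deposited signals of 64.6, 108 and 136 at 0 h, 160, 191 and 168 in untreated cells at 24 h and 284, 256 and 279 with IL-13. The largest falls were those of 209372_x_at (-1.22 ± 0.24) and 200799_at (-1.21 ± 0.23). Each of the 3 carries several symbols, so no gene is named.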

How the results depend on the processing

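Of the 473 genes called in the net comparison, 1 changed sign under an alternative in which it was tested (NUCKS1, -0.51 in full and 0.04 with the mean of probe sets), and 136 kept their call in all 19. The net count was 344 with median scaling and 355 with no filter, and ran from 210 to 355 over the 6 fits without 1 array. Scaling mattered more for the steps. The IL-13 step had 1016 calls with median scaling, where the median of all genes moved to 0.14 log2, 243 with only the groups compared and 194 to 539 without 1 array. The culture step had 869 calls with median scaling (median gene -0.15), 378 with median scaling on the tested genes, 155 with no filter, 418 with every probe set as its own test, and 66 to 227 without 1 array. Median scaling left the median gene of the net comparison at -0.0080. The share of higher calls moved by over 10 percentage points with scaling in the steps: for the IL-13 step from 56.2% to 93.5% with median scaling and 73.5% on the tested genes, and for the culture step from 47.8% to 5.87% and 28.6%. In the net comparison it was 49.5%, and 47.6% to 48.1% with the other scalings. Uncalled net differences that reversed were those of SCD5 (0.22 in full) without IL-13 24 h array b (-0.31, up to 0.56 without array c) and of ATF6 with the mean of probe sets (-0.062). With the replicate block the counts were 379 net, 390 for the IL-13 step and 194 for the culture step. Arrays of the same letter in the net comparison deviated from their group means with correlations of -0.11, -0.05 and -0.01, so the letters were not taken to pair the arrays. Dim genes, IL13RA2, IL4R and SOCS1 among them, are limited by signal over background, and no detection calls were used. The cause of these shifts was not tested.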
